A study of Mus musculus with 30 samples.

Results

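Genes of pre-mRNA splicing and of nuclear RNA packaging, 45 in all, were followed through 5 days of mouse pancreas development. The set held every gene whose array annotation symbol begins with Hnrnp, Hnrp, Srsf, Sfrs, Sf3a, Sf3b or Snrp, and Sfpq, and each gene was read from the probe set with the highest mean value. This gave 45 of the 15964 genes measured: 18 hnRNP genes, 9 SR protein genes, 8 SF3 genes, 9 snRNP genes and Sfpq. Symbols were those of probe sets assigned to 1 gene, and the 45 genes had 112 such probe sets among 36701 in all. All 45 were found in the RefSeq annotation by gene ID, and 1 of them, Snrp1c-ps2, is a pseudogene.

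Dorsal pancreata came from NMRI mouse embryos at e12.5, e13.5, e14.5, e15.5 and e16.5 (embryonic days), with no treatment or genetic change named in the labels, and were pooled by litter before RNA extraction. Per the series' design text 2 labelling reactions were made from a pool, and each stage has 2 arrays per chip, so these were read as 2 reactions of 1 pool. All 3 chips of the Affymetrix MG-U74 version 2 set (A, B and C) received each labelled sample, giving 30 arrays, 10 per chip. On that reading the spread between the 2 arrays is technical. Stage and pool therefore cannot be told apart in any difference below. The labels do not state how many embryos or litters went into a pool.

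Pre-mRNA is spliced by the spliceosome, a machine built from small nuclear ribonucleoproteins (snRNPs), most of them a small RNA held in a ring of Sm proteins. The U2 snRNP recognises the branch point of an intron through the SF3A and SF3B complexes. SR proteins bind exons and mostly favour the use of nearby splice sites, while hnRNP proteins coat the nascent transcript and often oppose it, and the balance between them sets which exons are kept.

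Levels of most splicing genes were lower in late than in early pancreas. In the stage trend, a line fitted over embryonic day to the 5 pool means, 29 of the 45 genes fell, 0 rose and 16 did not pass. A gene passed with a Benjamini-Hochberg adjusted p under 0.05 from limma, with adjustment over all 36701 probe sets. Over all 15964 genes 17.0% fell and 11.9% rose by the same rule, against 64.4% and 0% of the splicing genes. At an unadjusted p under 0.05 limma counted 37 as falling and 1 as rising, Snrpb2. By that looser rule 3765 of all 15964 genes fell and 3271 rose. The fitted change over the 4 days was below 0 in 41 of 45, with a median of -0.69 log2 units, against 0.02 over all genes. In a tissue sample fewer cells with a transcript and less of it per cell cannot be told apart. Both e16.5 arrays lay below all 8 earlier arrays of the chip for 32 of the 45 genes, which 22.8% of all genes did. Of all probe sets 13.1% fell with every pool in the fit. Without the e16.5 pool 8 genes fell, all 8 among the 29, and 6.21% of all probe sets did. Still, 40 of 45 changes stayed below 0, with a median of -0.45. Without the e13.5 pool 14 fell, again all among the 29, with a median of -0.66, and 8.99% of all probe sets fell.

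A direct contrast of e16.5 with e12.5 over the 10 arrays of a chip called a gene where the adjusted p was under 0.05 and the levels differed at least 2-fold. Of the 45 genes 10 were lower at e16.5 (4.25% of all genes) and 0 were higher (2.20% of all genes), and 0 were higher by 2-fold at an unadjusted p under 0.05 either. The 10 were Hnrnpa2b1, Hnrnpd, Hnrnph1, Hnrnph3, Hnrnpk, Hnrnpl, Hnrnpm, Hnrnpr, Sfpq and Snrpf. This contrast rests on technical spread alone, and a minimum of 1.5-fold in place of 2-fold raised the count of lower genes to 32. The share of all genes at 1.5-fold was not counted.

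**Figure D1:**
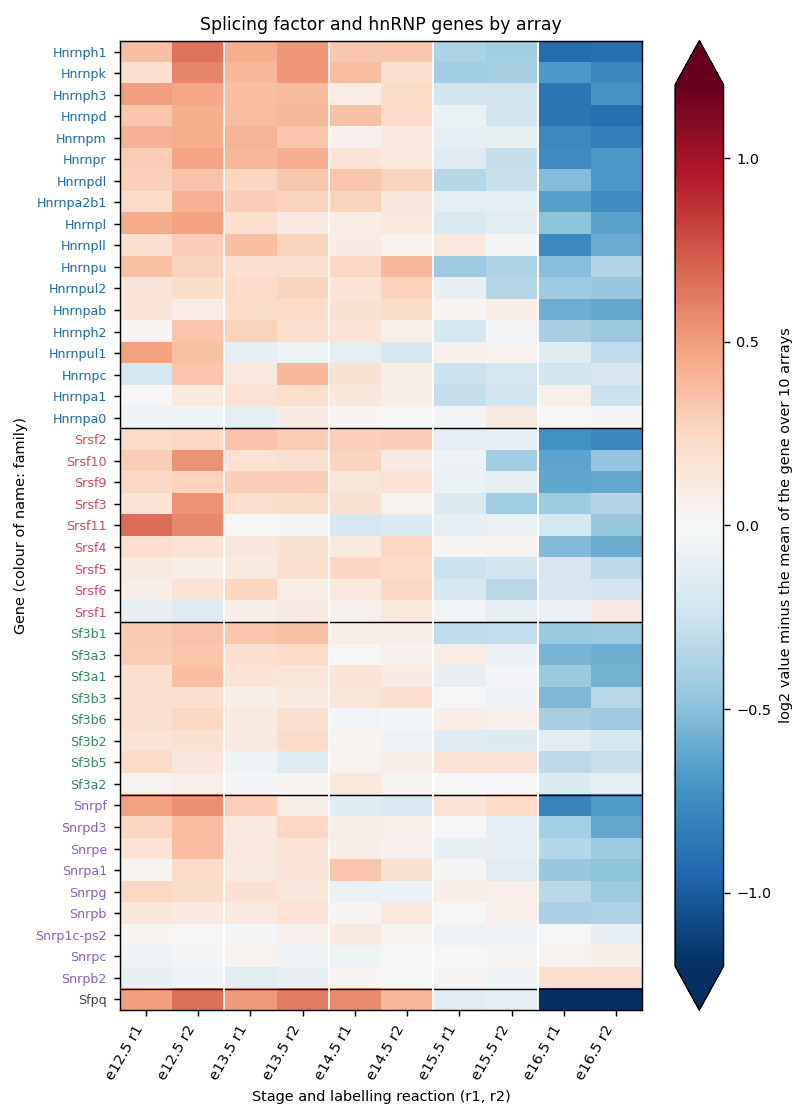
Log2 value of each of the 45 genes on each of its 10 arrays, minus the mean of the gene over those arrays, by stage and labelling reaction (r1, r2). Rows are grouped by family and ordered by fitted change. Most rows are red through e14.5 and blue at e16.5, and both e16.5 arrays lie below all 8 earlier arrays in 32 rows.

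The fall came late. The median daily step of the 45 genes was -0.02 log2 units to e13.5, -0.08 to e14.5, -0.19 to e15.5 and -0.41 to e16.5, while that of all genes lay between -0.01 and 0.00 at each step. From e12.5 to e14.5 the median difference was -0.11, and from e14.5 to e16.5 it was -0.58. The later of these differences was the lower in 39 of 45 genes, and in 8350 of all 15964. The largest single-day drop was the step to e16.5 in 26 genes and the step to e15.5 in 14. Over all 15964 genes the counts were 4799 and 4255, so the share for e15.5 lay close to that of the 45. Among the 14 were 7 hnRNP and 5 SR genes, with 1 SF3 and 1 snRNP gene. The median step to e15.5 was -0.36 in the hnRNP and -0.39 in the SR genes, against -0.11 in the SF3 and -0.05 in the snRNP genes. The difference between families was not tested.

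**Figure D2:**
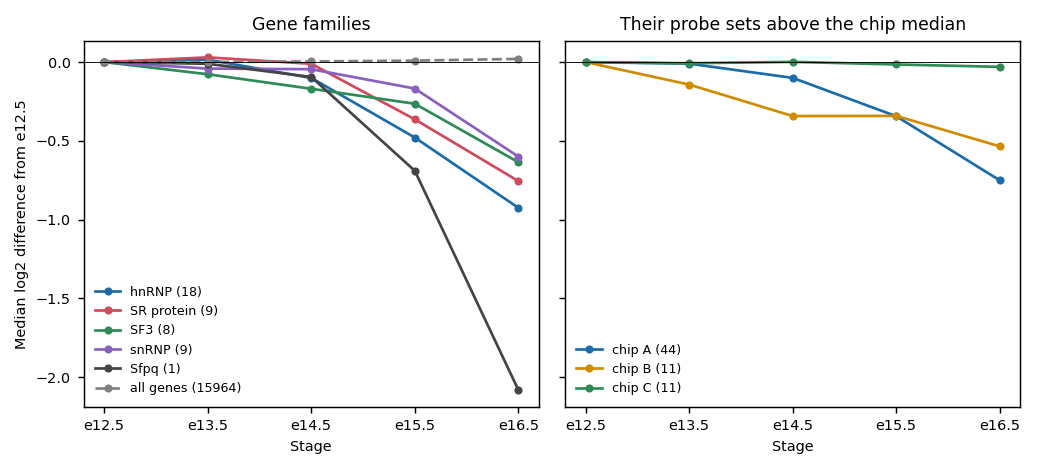
Left, median log2 difference from e12.5 at each stage for the 4 gene families, Sfpq and all 15964 genes, with the number of genes in brackets. Right, the same for the splicing probe sets above the median of their chip, by chip. hnRNP and SR medians were at -0.48 and -0.36 by e15.5, when SF3 and snRNP medians were at -0.26 and -0.17. The chip C probe sets stayed near 0.

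The promoters are shown because 29 of the 45 genes fell, and promoters carry the sequence that transcription factors read. RefSeq windows (GRCm38.p6) from 250 bases before to 50 after the annotated start were at hand for 40 of the 45 genes, 50 windows in all. The 5 below belong, in each family, to the gene with the largest passing fall among those with 1 window. Capitals mark GGCGGGG, the box bound by Sp1 and its relatives, and ATGGCGG, the core of the YY1 site, on either strand. The letters are written 5′ to 3′ on the strand of the gene.
Hnrnpk, chr13:58402068-58402367, minus strand: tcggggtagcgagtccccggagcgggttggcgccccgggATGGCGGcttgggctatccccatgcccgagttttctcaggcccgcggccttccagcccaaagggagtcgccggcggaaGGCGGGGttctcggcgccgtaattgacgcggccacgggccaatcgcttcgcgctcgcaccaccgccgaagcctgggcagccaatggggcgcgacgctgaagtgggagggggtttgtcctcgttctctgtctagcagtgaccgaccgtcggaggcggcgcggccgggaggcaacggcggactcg
Srsf2, chr11:116853045-116853344, minus strand: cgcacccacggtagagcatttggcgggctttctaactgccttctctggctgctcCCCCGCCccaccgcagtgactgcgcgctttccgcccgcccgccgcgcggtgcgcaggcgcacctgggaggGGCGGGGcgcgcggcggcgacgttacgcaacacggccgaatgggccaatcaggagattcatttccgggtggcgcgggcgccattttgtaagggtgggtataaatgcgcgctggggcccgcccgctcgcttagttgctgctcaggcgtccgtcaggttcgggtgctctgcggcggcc
Sf3b1, chr1:55027429-55027728, minus strand: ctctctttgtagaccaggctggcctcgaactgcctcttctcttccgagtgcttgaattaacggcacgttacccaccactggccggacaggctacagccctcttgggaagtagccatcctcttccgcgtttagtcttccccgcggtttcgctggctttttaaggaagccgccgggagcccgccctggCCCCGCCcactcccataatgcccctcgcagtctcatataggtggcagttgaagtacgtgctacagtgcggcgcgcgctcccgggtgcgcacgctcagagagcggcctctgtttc
Snrpf, chr10:93589609-93589908, minus strand: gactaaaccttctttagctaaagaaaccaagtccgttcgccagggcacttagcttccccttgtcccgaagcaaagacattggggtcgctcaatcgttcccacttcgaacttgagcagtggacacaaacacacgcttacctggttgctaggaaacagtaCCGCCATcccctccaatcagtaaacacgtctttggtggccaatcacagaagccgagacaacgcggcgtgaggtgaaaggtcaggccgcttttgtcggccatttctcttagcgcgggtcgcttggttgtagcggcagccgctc
Sfpq, chr4:127021051-127021350, plus strand: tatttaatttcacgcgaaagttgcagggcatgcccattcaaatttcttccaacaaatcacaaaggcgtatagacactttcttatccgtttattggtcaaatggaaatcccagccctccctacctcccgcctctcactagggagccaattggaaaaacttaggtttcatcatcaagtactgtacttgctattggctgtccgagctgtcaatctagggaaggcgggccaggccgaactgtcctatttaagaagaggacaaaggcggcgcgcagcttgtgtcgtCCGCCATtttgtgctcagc

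In the printed windows an Sp1 box began 133 bases before the start in Hnrnpk, 64 before it in Sf3b1, and 196 and 126 before it in Srsf2. The YY1 core began 211 bases before the start in Hnrnpk and 92 before it in Snrpf, and at base 32 of the transcript in Sfpq. ATGGCGG lay in a window of 12 of the 40 genes (30%), against 7.49% of the 12651 measured genes with a window and 10.5% of the 2217 of those that fell. CCGGAAG, the core of the ETS site, was in 14 of 40 (35.0%), against 15.8% of measured genes and 17.0% of those that fell. GGCGGGG was in 20 of 40 (50%), against 41.9% and 51.7%. Both strands were searched, and an Sp1 box can overlap a YY1 core by the letters GGCGG. The median window held 25.5 CpG dinucleotides and 60.7% G and C, against 17.0 and 59.0% over measured genes and 23.0 and 62.7% over measured genes that fell. Among the other motifs searched, CCAAT was in 52.5% of the 40, TATAAA in 12.5%, GCATGCGC (from the NRF1 site) in 5.0%, TGACGTCA (the cyclic AMP response element) in 2.5% and TTTGGCGC (an E2F site) in 0%. In measured genes these shares were 42.4%, 11.2%, 4.9%, 3.0% and 0.98%. Of the 40 genes 27 fell and 13 did not pass. CCGGAAG was in 33.3% of the 27 and 38.5% of the 13, and GGCGGGG was in 51.9% and 46.2%. ATGGCGG was in 10 of the 27 and 2 of the 13. The median CpG count was no higher in the 27 than in the 13. Whether any motif goes with the fall was not tested. A match is a description of the letters, and genes with several windows had more sequence to match.

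Among the hnRNP genes 13 of 18 fell, with a median change of -0.90 over all 18. Hnrnph1, whose protein binds runs of G in pre-mRNA (probe set 93990_at), read 9.26 and 9.55 at e12.5, 9.33 and 9.42 at e13.5, 9.22 and 9.23 at e14.5, 8.52 and 8.48 at e15.5 and 7.97 and 8.0 at e16.5, in log2 units. Its 4 arrays of e15.5 and e16.5 lay below its 6 earlier arrays, and the trend fell 2.80-fold (-1.49 ± 0.24, adjusted p = 0.0073). Hnrnpk, which binds C-rich RNA and single-stranded DNA through KH domains (probe set 94041_at), read 7.90 and 8.29 at e12.5, 8.10 and 8.23 at e13.5, 8.07 and 7.90 at e14.5, 7.29 and 7.30 at e15.5 and 7.01 and 6.93 at e16.5. It was level through e14.5, and its 4 later arrays lay below the 6 earlier ones, and the trend fell 2.38-fold (-1.25 ± 0.22, adjusted p = 0.0106). Hnrnph3, a relative of Hnrnph1 (probe set 104231_at), read 8.13 and 8.08 at e12.5, 7.98 and 8.0 at e13.5, 7.71 and 7.84 at e14.5, 7.40 and 7.40 at e15.5 and 6.76 and 6.91 at e16.5. The arrays of each stage lay below those of the stage before, and its trend was -1.25 ± 0.16, adjusted p = 0.0038.

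Hnrnpd, also called AUF1, which binds AU-rich elements of unstable mRNAs (probe set 94303_at), read 9.34 and 9.45 at e12.5, 9.38 and 9.40 at e13.5, 9.37 and 9.25 at e14.5, 8.94 and 8.78 at e15.5 and 8.14 and 8.11 at e16.5. It was level through e14.5 and lower at e15.5 and e16.5 (trend -1.23 ± 0.26, adjusted p = 0.0176). A chip C set of Hnrnpd had a change of -0.20 ± 0.09 and did not pass (adjusted p = 0.161). With all probe sets of a gene averaged, Hnrnpd, Hnrnph1 and Hnrnpm still passed, with changes of -0.44, -0.76 and -0.73. Hnrnpm fell by 1.16 ± 0.19 (adjusted p = 0.0083), from a mean of 9.99 at e12.5 to 8.77 at e16.5. The other hnRNP genes below, apart from Hnrnph2, were picked out after their values were seen. Hnrnpdl, a relative of Hnrnpd, fell by 0.98 ± 0.20 (adjusted p = 0.0175). Hnrnpr fell by 1.14 ± 0.17 (adjusted p = 0.0063). Hnrnpl, which binds CA repeats, fell by 0.95 ± 0.12 (adjusted p = 0.0036), as did its paralogue Hnrnpll (-0.84 ± 0.23, adjusted p = 0.0392). Hnrnpa2b1, a core protein of the hnRNP particle, fell by 0.98 ± 0.20 (adjusted p = 0.0157). Hnrnpu, a nuclear matrix protein, fell by 0.83 ± 0.21 (adjusted p = 0.0319), as did its relative Hnrnpul2 (-0.69 ± 0.17, adjusted p = 0.0298). Another chip A set of Hnrnpul2, at a mean of 6.63 against 6.77, had a change of 0.00 and did not pass (adjusted p = 0.989). Hnrnph2, another H-type gene, fell by 0.62 ± 0.14 (adjusted p = 0.0229), and its mean of 4.10 lay under the chip A median of 5.74.

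The other 5 hnRNP genes did not pass. Hnrnpa0, an intronless relative of Hnrnpa1 (probe set 116354_r_at), read 7.51 and 7.51 at e12.5, 7.45 and 7.65 at e13.5, 7.58 and 7.56 at e14.5, 7.54 and 7.66 at e15.5 and 7.54 and 7.53 at e16.5, and its stages overlapped (trend 0.04 ± 0.09, adjusted p = 0.778). Hnrnpc, which binds uridine tracts of nascent transcripts, had a fitted change of -0.42 (adjusted p = 0.109). Its reactions at e12.5 had an SD of 0.38, the widest of the 45 genes at any stage. Hnrnpa1, a splicing repressor, had a change of -0.31 (adjusted p = 0.194) on a probe set below its chip median. Hnrnpab was level to e15.5 and lower at e16.5, at 7.44 and 7.42 against 8.05 to 8.26 on the 8 earlier arrays, and its line did not pass (-0.65 ± 0.24, adjusted p = 0.0955). Hnrnpul1 had a change of -0.46 (adjusted p = 0.0956). Without the e16.5 pool Hnrnph3 (adjusted p = 0.0159) and Hnrnpm (0.0232, change -0.74) still passed. Hnrnph1 (0.062), Hnrnpk (0.0909), Hnrnpd (0.0932, change -0.68) and Hnrnph2 (0.161, change -0.40) did not. Without the e13.5 pool Hnrnpd (0.0527) and Hnrnph2 (0.0681) did not pass, and without e12.5 reaction 2 Hnrnph2 did not (0.0876).

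**Figure D3:**
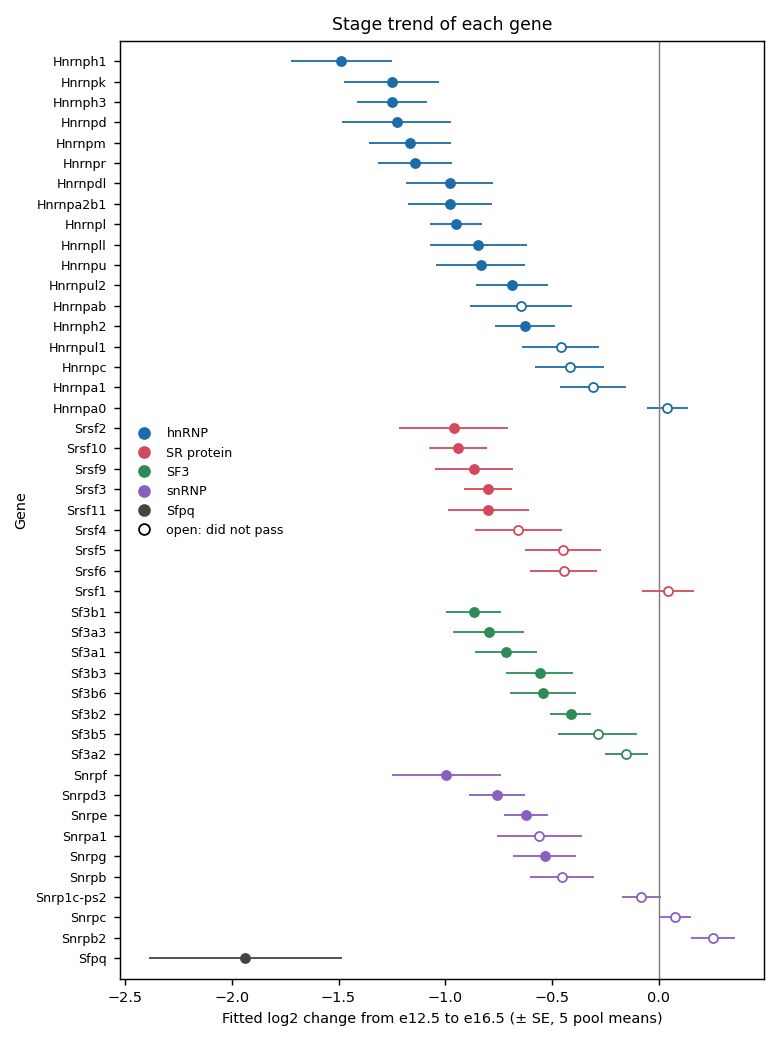
Fitted log2 change from e12.5 to e16.5 of each gene, with its standard error from the line over 5 pool means, coloured by family. Filled points passed (29 genes, all below 0), and open points did not (16 genes). Sfpq lies farthest from 0 at -1.94, and Snrpb2 is the open point farthest above 0 at 0.26.

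SR protein genes fell in 5 of 9 cases, with a median change of -0.80. Srsf2, also known as SC35, an exon-binding activator and a classic marker of nuclear speckles (probe set 94017_s_at), read 11.33 and 11.35 at e12.5, 11.44 and 11.41 at e13.5, 11.38 and 11.40 at e14.5, 10.99 and 11.00 at e15.5 and 10.38 and 10.33 at e16.5. It was level through e14.5, lower on both e15.5 arrays and lowest on both e16.5 arrays, and the trend fell 1.94-fold (-0.96 ± 0.26, adjusted p = 0.0384). Srsf10, which represses splicing when dephosphorylated (probe set 98048_at), read 6.01 and 6.24 at e12.5, 5.88 and 5.90 at e13.5, 5.97 and 5.82 at e14.5, 5.65 and 5.29 at e15.5 and 5.07 and 5.24 at e16.5. All 4 late arrays lay below the 6 earlier ones (trend -0.94 ± 0.14, adjusted p = 0.0052). The mean of Srsf10, 5.71, lay just under the chip A median of 5.74. Srsf9 fell by 0.87 ± 0.18 (adjusted p = 0.0184), as did Srsf3, which also serves mRNA export (-0.80 ± 0.11, adjusted p = 0.0049). Srsf11, read on chip B, fell by 0.80 as well.

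The SR genes that did not pass were Srsf1, Srsf4, Srsf5 and Srsf6. The fitted change of Srsf4 was -0.66 ± 0.20 (adjusted p = 0.0602), yet its e16.5 arrays at 6.98 and 6.91 lay below the 8 earlier ones at 7.52 to 7.75. Another chip A set of Srsf4, at a mean of 6.11 against 7.51, fell (-0.44 ± 0.12, adjusted p = 0.0401). Srsf5 and Srsf6 had changes of -0.45 and -0.44 (adjusted p = 0.113 and 0.0824), with all 4 arrays of e15.5 and e16.5 below the 6 earlier ones in each. Without the e16.5 pool Srsf10 (adjusted p = 0.0414) and Srsf3 (0.0294) passed, and Srsf11 (0.07), Srsf9 (0.101, change -0.49) and Srsf2 (0.263, change -0.42) did not. Srsf2 also did not pass without the e13.5 pool (0.0959), without the e15.5 pool (0.0581) or with cyclic loess scaling (0.0513), and its change was -1.44 without the e12.5 pool. Srsf9 did not pass without the e13.5 pool (0.0563).

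In the U2 branch point complexes 6 of 8 genes fell, with a median change of -0.55. Sf3b1, the large subunit that clamps the branch point helix (probe set 97808_at), read 8.56 and 8.59 at e12.5, 8.58 and 8.59 at e13.5, 8.31 and 8.33 at e14.5, 7.94 and 7.95 at e15.5 and 7.80 and 7.82 at e16.5. The e12.5 and e13.5 arrays were level, and the arrays of each later stage lay below those before them (trend -0.87 ± 0.13, adjusted p = 0.0059). In the same complex Sf3b3 fell by 0.56 ± 0.16 (adjusted p = 0.0469). Sf3b6, which lies at the branch point adenosine, fell by 0.54 ± 0.15 (adjusted p = 0.0455). Sf3b2, picked out after its value was seen, fell by 0.41 ± 0.10 (adjusted p = 0.0259). Sf3b5 had a change of -0.29 ± 0.19 (adjusted p = 0.301). In SF3A, Sf3a3 fell by 0.80 ± 0.16 (adjusted p = 0.0171) and Sf3a1 fell by 0.71 ± 0.15 (adjusted p = 0.0167), while Sf3a2 had a change of -0.15 ± 0.10 (adjusted p = 0.315). When the e16.5 pool was left out Sf3b1 passed (adjusted p = 0.0399), while Sf3a3 (0.0745, change -0.45), Sf3a1 (0.0837, change -0.42), Sf3b6 (0.307, change -0.25) and Sf3b3 (0.311, change -0.24) did not. Without the e13.5 pool Sf3a3 (0.0532), Sf3b3 (0.0958) and Sf3b6 (0.112) did not pass. Sf3b3 and Sf3b6 lay near the threshold, and their calls also ended without the e12.5 pool (0.0772 and 0.102) and with median centring (0.0591 and 0.0626) or cyclic loess (0.0717 and 0.068). For Sf3b3 the call ended without the e15.5 pool (0.0534) or 1 reaction of e14.5, e15.5 or e16.5 (0.0522 to 0.0571). For Sf3b6 it ended without the e14.5 pool (0.0671) or 1 reaction of e12.5, e14.5 or e15.5 (0.05 to 0.0558).

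Of the snRNP genes 4 of 9 fell, with a median change of -0.53, and all 4 encode Sm ring proteins. Snrpf, on chip B (probe set 111352_at), read 7.84 and 7.91 at e12.5, 7.65 and 7.44 at e13.5, 7.21 and 7.18 at e14.5, 7.53 and 7.60 at e15.5 and 6.57 and 6.68 at e16.5. It was lower at e14.5 than at e12.5, higher again at e15.5 and lowest at e16.5, and the trend fell 1.99-fold (-0.99 ± 0.25, adjusted p = 0.0254). Snrpd3 fell by 0.76 ± 0.13 (adjusted p = 0.01), Snrpe fell by 0.62 ± 0.10 (adjusted p = 0.0087) and Snrpg fell by 0.53 ± 0.15 (adjusted p = 0.0433). A further Sm gene, Snrpb (probe set 160555_r_at), read 12.34 and 12.32 at e12.5, 12.32 and 12.38 at e13.5, 12.24 and 12.33 at e14.5, 12.21 and 12.26 at e15.5 and 11.81 and 11.83 at e16.5. Only its e16.5 arrays stood below the rest, and its line did not pass (-0.45 ± 0.15, adjusted p = 0.0703).

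The genes of snRNP-specific proteins were Snrpa1 and Snrpb2 of U2 and Snrpc of U1, and none of these passed. Snrpa1 had a change of -0.56 ± 0.20 (adjusted p = 0.0851), with its e16.5 arrays at 5.74 and 5.71 below the 8 earlier ones at 6.06 to 6.53. Its binding partner Snrpb2 had a change of 0.26 ± 0.10 (adjusted p = 0.119), with both e16.5 arrays above the 8 earlier ones. Snrpc had a change of 0.08 ± 0.07 (adjusted p = 0.445), and the pseudogene Snrp1c-ps2 one of -0.08 ± 0.09 (adjusted p = 0.558). Without the e16.5 pool Snrpd3 passed (adjusted p = 0.0419, change -0.49). Snrpe (0.0518), Snrpf (0.281, change -0.52) and Snrpg (0.298, change -0.30) did not, and the change of Snrpb was -0.14. Snrpf and Snrpg also did not pass without the e13.5 pool (0.0597 and 0.11) or the e12.5 pool (0.162 and 0.119), and Snrpg did not without the e14.5 pool (0.0594) or with median centring (0.0608) or cyclic loess (0.0979). With all probe sets of a gene averaged, Snrpd3 and Snrpe had changes of -0.12 and -0.11 and did not pass (adjusted p = 0.273 and 0.368).

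Sfpq encodes a partner of Nono and Pspc1 in paraspeckles, and is used in splicing and transcription. Its values (probe set 99621_s_at) were 7.26 and 7.42 at e12.5, 7.27 and 7.38 at e13.5, 7.33 and 7.16 at e14.5, 6.63 and 6.66 at e15.5 and 5.14 and 5.37 at e16.5. It was level through e14.5, dropped by 0.60 to e15.5 and dropped by 1.39 to e16.5. Its trend fell 3.83-fold (-1.94 ± 0.45, adjusted p = 0.0256), the largest change of the 45 genes by the probe sets in use, and e16.5 was 4.23-fold lower than e12.5. With its 10 probe sets averaged the change was -0.42 (adjusted p = 0.0232). The change was -0.86 when the e16.5 pool was left out (adjusted p = 0.0902) and -1.89 without the e13.5 pool (0.0673). Nono and Pspc1, chosen for that partnership after their values were seen, also fell (-1.19, adjusted p = 0.0113, and -1.24, adjusted p = 0.002). The mean of Pspc1, 5.27, lay under the chip A median of 5.74.

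**Figure D4:**
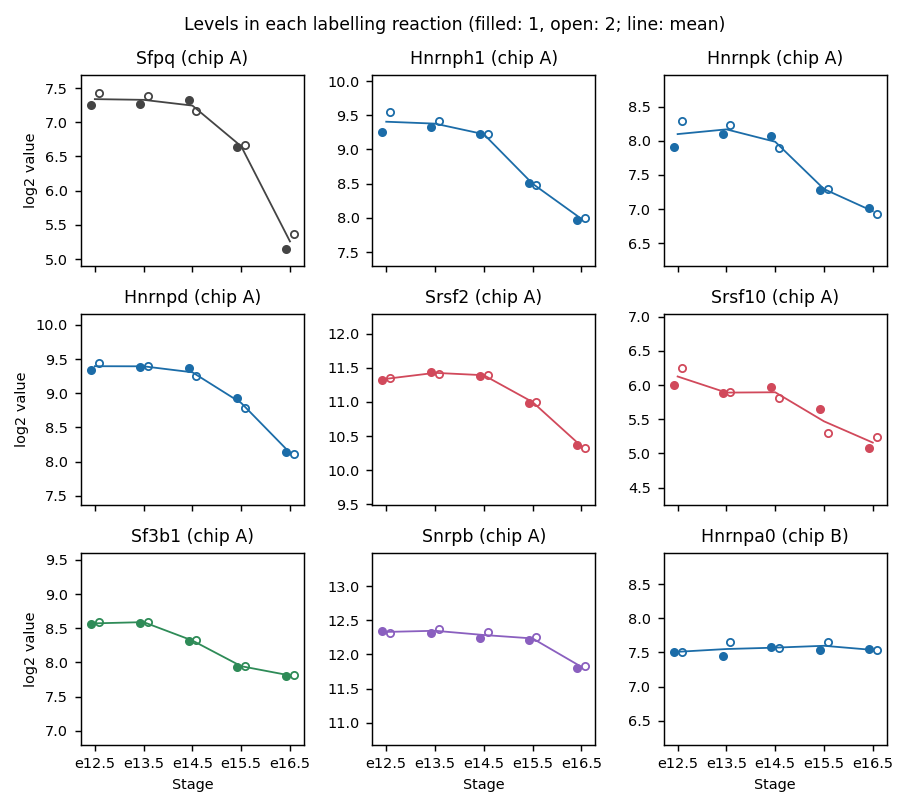
Log2 value in each labelling reaction (filled 1, open 2) with the stage mean as a line, for 9 genes, each panel spanning the same range of log2 units. Sfpq drops from 6.65 at e15.5 to 5.26 at e16.5, Hnrnph1, Hnrnpk, Hnrnpd and Srsf2 bend down after e14.5, Snrpb drops at e16.5 alone, and Hnrnpa0 is flat.

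The probe sets of a gene did not always move alike, although the same labelled samples went onto all 3 chips. Of the 66 splicing probe sets above the median of their chip, 30 of 44 fell on chip A, 5 of 11 on chip B and 1 of 11 on chip C. Over all probe sets above the chip median the shares that fell were 21.4%, 24.2% and 11.4%. Median changes were -0.78, -0.43 and 0.00, and on chip B most of the difference came before e14.5 (-0.34 to e14.5 and -0.15 after it). Of the 45 genes 39 were read on chip A, 5 on chip B (Hnrnpa0, Hnrnpul1, Snrpf, Srsf1 and Srsf11) and 1 on chip C (Snrpc). The mean lay above the chip median in 40 of the 45, and under it in Hnrnpa1, Hnrnpc, Hnrnph2, Snrpb2 and Srsf10. Of all 112 probe sets 45 fell and 1 rose, a dim Snrpd3 set on chip C (0.30 ± 0.09, mean level 2.74, adjusted p = 0.0414). Among all 36701 probe sets, dim ones included, 4825 fell and 3886 rose.

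Srsf11 shows this difference between chips. Its probe set on chip B had stage means of 9.21 at e12.5, 8.57 at e13.5, 8.40 at e14.5, 8.49 at e15.5 and 8.25 at e16.5, and dropped by 0.64 at the e13.5 step (trend -0.80 ± 0.19, adjusted p = 0.0206). Without the e12.5 pool its change was -0.34 (adjusted p = 0.183). The set on chip A had 8.02 at e12.5, 8.07 at e13.5, 7.95 at e14.5, 7.48 at e15.5 and 7.20 at e16.5. It was level to e14.5, dropped by 0.47 at the e15.5 step, and also fell over the 4 days (-0.89 ± 0.17, adjusted p = 0.014). Its set on chip C had 6.78 at e12.5, 6.84 at e13.5, 6.99 at e14.5, 6.89 at e15.5 and 6.96 at e16.5 and did not pass (0.16 ± 0.09, adjusted p = 0.207). With all its probe sets averaged Srsf11 fell by 0.31 (adjusted p = 0.0234).

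Srsf1, the founding SR protein, was read from chip B, where stage means were 6.65 at e12.5, 6.87 at e13.5, 6.86 at e14.5, 6.70 at e15.5 and 6.79 at e16.5 and the change was 0.04 ± 0.12. A chip A set had 6.37 at e12.5, 6.25 at e13.5, 6.31 at e14.5, 5.97 at e15.5 and 5.38 at e16.5 and fell (-0.90 ± 0.21, adjusted p = 0.0259). Another chip A set had 6.04 at e12.5, 6.27 at e13.5, 6.19 at e14.5, 5.76 at e15.5 and 4.47 at e16.5, a steeper late drop whose line did not pass (-1.46 ± 0.46, adjusted p = 0.0624). For Srsf1 the call thus depended on the probe set that stood for the gene. In Srsf6 a chip B set fell (-0.74 ± 0.16, adjusted p = 0.0134) where the chip A set in use did not pass. A brighter chip B set of Srsf6, at a mean of 8.08 against 7.61, did not pass (-2.0e-04 ± 0.12, adjusted p = 0.999). Nor did its chip C set (0.06 ± 0.10, adjusted p = 0.673). For Snrpc a chip A set had a change of -0.63 ± 0.19 (adjusted p = 0.0526), against 0.08 and -0.08 in 2 chip C sets. The Sf3b2 set on chip B had a change of 0.29 ± 0.10 (adjusted p = 0.0719), opposite in sign to the chip A set in use.

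Sfpq had 10 probe sets. The one in use is of the s type, whose probes are shared by similar sequences, and 2 dimmer chip A sets also fell (-0.92 ± 0.19, adjusted p = 0.018, and -1.06 ± 0.15, adjusted p = 0.0048). A chip B set above the median of its chip had a change of -0.29 ± 0.11 (adjusted p = 0.0889). By design of the set in use, 23 of 33 genes with a plain set fell, 3 of 3 with an s set (Hnrnpdl, Sfpq and Srsf2), 3 of 4 with an f set (a set for similar sequences) and 0 of 5 with an r set. An r set was made under relaxed probe rules, and the 5 were Hnrnpa0, Sf3a2, Snrpb, Snrpb2 and Snrpc. The part of probe design in these differences was not tested.

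Other genes of the splicing machinery, with some of their relatives, were counted from 5 lists that hold none of the 45 genes. Of 163 listed genes 141 were measured, and 68 fell, 3 rose and 70 did not pass, with a median change of -0.47. Of 17 U2AF, branch point and U1-linked genes 9 fell, most of all Rbm5 (-1.07 ± 0.12, adjusted p = 0.001), Luc7l3 (-1.02 ± 0.15) and Rbm25 (-0.92 ± 0.16). These were read on chip B, and each dropped more from e12.5 to e14.5 than from e14.5 to e16.5. The differences were -0.66 and -0.46 in Rbm5, -0.79 and -0.38 in Luc7l3, and -0.71 and -0.37 in Rbm25. Of the tri-snRNP, Prp19 complex and catalytic step genes 18 of 38 fell, among them Ddx39b, a helicase of splicing and export (-1.22 ± 0.28), Prpf8, the scaffold of the catalytic core (-0.82 ± 0.19), and the U5 GTPase Eftud2 (-0.82 ± 0.20). Of 18 genes of Lsm proteins and of the SMN complex, which assembles snRNPs, 7 fell, with Lsm3 (-0.92 ± 0.22), Lsm14a (-0.79 ± 0.13) and Lsm7 (-0.65 ± 0.18) in front. Lsm3 and Lsm7 are subunits of the Lsm ring, and Lsm14a is not.

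Among exon junction and SR-related genes 12 of 20 fell and 1 rose. The largest falls were in Scaf8 (-1.19 ± 0.11), Rnps1 (-1.0 ± 0.24) and Clk1, a kinase of SR proteins (-0.98 ± 0.14), and the rise was in Casc3, an exon junction protein (0.45 ± 0.11, adjusted p = 0.0314). Casc3 was dim, with a mean of 3.79 against a chip A median of 5.74. Other RNA-binding splicing regulators fell in 22 of 48 cases and rose in 2. Qk (-1.56 ± 0.19, adjusted p = 0.0032), Tia1 (-1.41 ± 0.17) and Ptbp2 (-1.32 ± 0.22) fell most. Ptbp2, at a mean of 5.13, also lay under the chip A median. Mbnl1, a regulator of developmental splicing switches, rose from 6.65 to 7.22 (0.62 ± 0.10, adjusted p = 0.0084), and Pcbp3 rose from 10.67 to 11.00 (0.32 ± 0.07, adjusted p = 0.02).

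**Figure D5:**
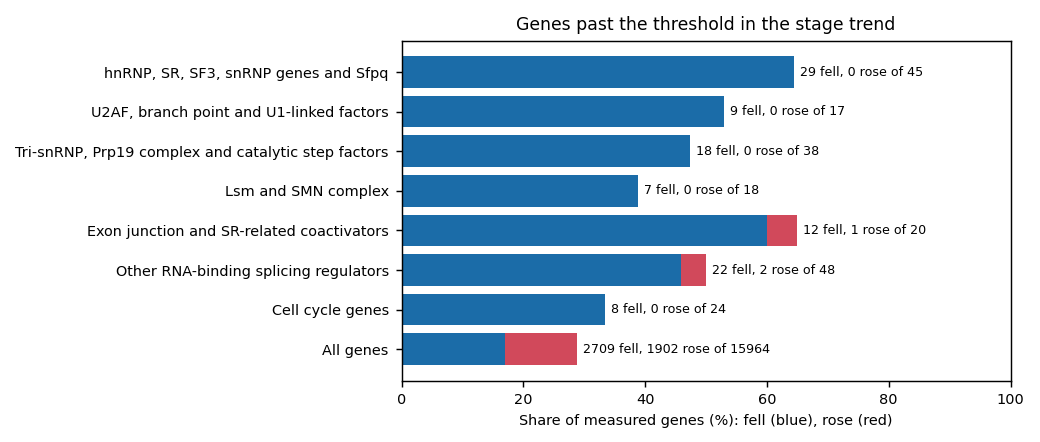
Share of the measured genes of each list that passed the stage trend, falling (blue) or rising (red), with counts beside each bar. The 45 hnRNP, SR, SF3 and snRNP genes with Sfpq fell in 64.4% of cases, the other splicing lists in 38.9% to 60%, cell cycle genes in 33.3%, and all genes in 17.0%.

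The make-up of the tissue changed over the same days. Summed over the 45 genes on a linear scale, across chips normalized separately, the values of an array ran from 25321 to 25864 at e12.5, from 23594 to 23820 at e14.5, from 21239 to 21253 at e15.5 and from 16268 to 16524 at e16.5. All 12 acinar markers rose, with a summed value of 1492 to 1534 at e12.5 and of 75028 to 76659 at e16.5. Of 12 mesenchyme markers 7 fell and 1 rose (summed 7615 to 8033 at e12.5, 4748 to 4847 at e16.5), and of 10 neural and Schwann markers 8 fell (1897 to 1964, then 1077 to 1098). Of 10 pancreatic epithelium markers 5 rose and 1 fell (3289 to 3396, then 13153 to 13349). Cpa1, the brightest of these (10.75 at e12.5, 13.31 at e16.5), weighed most in that sum. The marker that fell was Sox9 (-0.74). Pdx1 (-0.05), Nkx2-2 (-1.01), Onecut1 (-0.36) and Foxa2 (0.23) did not pass. Of 8 endocrine markers 4 rose and 1 fell (5881 to 5963, then 10026 to 10708). Endothelial markers fell in 3 of 8 cases and rose in 1 (1652 to 1655, then 1557 to 1580). Red cell markers fell in 3 of 7 and rose in 2 (18604 to 18640, then 8048 to 8400). The 3 that fell were the globin genes Hbb-y (13.15 to 7.51), Hba-x (11.87 to 6.39) and Hbb-bh1 (8.18 to 6.78). Those that rose were Hba-a1 (12.33 to 12.81) and Alas2 (7.67 to 9.13), so the sum is not a measure of red cell number. Leukocyte markers fell in 2 of 10 and rose in 1 (942 to 962, then 1624 to 1644). The values carry no detection calls, so no marker can be called absent. Means below the chip median were found for 2 of 10 neural, 3 of 12 mesenchyme, 6 of 10 leukocyte markers and 1 marker of each other list.

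Cell cycle genes were counted beside them. Of 24 measured, 8 fell and 0 rose in the limma trend (15 and 0 at an unadjusted p under 0.05), with a median change of -0.72. Their summed value was 9943 to 10066 at e12.5, 9343 to 9395 at e15.5 and 5478 to 5579 at e16.5. The largest single-day drop was the step to e16.5 in 21 of 24, with a median step of -0.11 to e15.5 and -0.74 to e16.5. Those median steps were -0.36 and -0.37 in the hnRNP genes, -0.39 and -0.24 in the SR genes, -0.11 and -0.43 in the SF3 genes, and -0.05 and -0.41 in the snRNP genes. The part of cell cycle activity and of tissue make-up in the fall of the splicing genes was not tested.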

How the data were processed

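Values were deposited as log2 expression, made by the authors with RMA per the submitters' processing notes. The base of the log was inferred from the range. RMA evens out overall brightness between arrays, so a value is relative to the rest of the array. Each chip was treated as normalized on its own, levels were not tested between chips, and no detection calls are given. Names came from GEO's platform annotation, updated through Entrez identifiers to RefSeq (GRCm38.p6). Of 36701 probe sets 29131 had 1 symbol, and 724 with several and 6846 with none were left out of the genes.

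Tests used limma 3.58.1 in R 4.3.3. The 2 reactions of a pool were averaged, and each chip's 5 pool means were fitted against embryonic day with empirical Bayes moderation. A change is the fitted slope over 4 days, ± its standard error. P-values of all 3 chips were adjusted as 1 family (Benjamini-Hochberg). The code was tested on simulated data. Arrays have no read depth, and their number limits the precision.

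Genes named are, in each family, up to 5 with the largest passing slope of the same sign in both reaction numbers, Sfpq, the highest and lowest mean, any gene with probe sets passing both ways, and up to 3 genes per direction in each other splicing list. Further genes were picked after their values were seen. Genes, lists and rules were chosen with earlier results of these data known. Reactions with the same number in different stages did not deviate together (correlations from -0.18 to 0.11), so the number pairs nothing. Alternatives were other scalings, a bright-set filter, an intensity trend, adjustment within chips, averaging a gene's probe sets, other fold minimums, leaving out each reaction and pool, the replicate block and cyclic loess, the last chosen after seeing the data. No sample was left out.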

Additional observations from a re-analysis of the deposited data

How the results depend on the processing

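The count of 29 falling genes ranged from 26 to 31 when 1 labelling reaction was left out, and was 24 without the e12.5 pool, 14 without the e13.5 pool, 27 without e14.5, 25 without e15.5 and 8 without e16.5. The share of all probe sets that fell, 13.1% in the main fit, moved too. It was 9.08% without e12.5, 8.99% without e13.5, 11.9% without e14.5, 12.5% without e15.5 and 6.21% without e16.5. The count of falling genes was 26 with arrays centred on their median, 28 with quantile normalization again and 24 with cyclic loess. In these settings 12.8%, 12.8% and 13.1% of all probe sets fell. When a gene's probe sets were averaged the count was 27, and 15.7% of all genes fell. Of the 29 genes 25 were then among those that fell, and the median change of the 45 was -0.45. With the replicate number as a block 37 fell and 1 rose, and 19.9% of all probe sets fell. Over the 10 arrays without a block 36 fell and 1 rose, and 20.5% of all probe sets fell. Both treat reactions of a pool as samples. The count of genes at least 2-fold lower at e16.5, 10, ran from 9 to 13 without 1 reaction, was 5 with the mean of all probe sets and 32 with a 1.5-fold minimum. With no fold minimum 38 were lower and 1 was higher. Shares of all genes at these other minimums were not counted. The counts of rising genes (stage trend) and of higher genes (contrast) were 0 without any 1 reaction. Of 526 refits of the 22 named genes' changes, 472 kept their call status, 52 lost the call and 2 gained it, and no called gene changed sign. Snrpb, which did not pass, went from -0.45 to 0.07 with its probe sets averaged. Named genes lost most calls without the e16.5 pool (15) and the e13.5 pool (10). The cause was not tested. With arrays of a stage read as 1 pool, no spread between litters is known, and no value separates stage from pool. Dim probe sets have no background level to be read against.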

Other observations

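Probe sets annotated to several symbols were outside the 45 genes, but 9 of them name an hnRNP or snRNP gene beside another symbol. Of these 9 sets 6 fell, against 13.1% of all probe sets. The 9 are not 9 genes, as Hnrnpa1 and Hnrnpa3 are each named by more than 1 set. Among those that fell, means lay under the chip A median of 5.74 for Snrpd1, Hnrnpa1 with Hnrnpa1l2-ps2, and Hnrnpa3 at -0.57. A set shared by Hnrnpa1 and Hnrnpa1l2-ps2 was at 5.51 at e12.5 and 4.34 at e16.5 (-1.29 ± 0.14, limma adjusted p = 0.0022), and another, of Hnrnpa1, Gm10052 and Gm5643, was at 8.02 and 7.49 (-0.60 ± 0.10, adjusted p = 0.01). The Hnrnpa1 set with 1 symbol did not pass. Those of Snrpa, the U1 protein that binds a stem-loop of U1 RNA (-0.63 ± 0.14, adjusted p = 0.0223), and of the Sm gene Snrpd1 (-0.51 ± 0.10, adjusted p = 0.0159) fell as well. Of 3 sets for Hnrnpa3, both on chip A fell (-0.65 and -0.57, adjusted p = 0.0268 and 0.0489), and the chip B set had a change of -0.33 (adjusted p = 0.0619). Snrpd2 had a change of -0.20 (adjusted p = 0.189). The dim Snurf and Snrpn set on chip C had one of -0.08 (adjusted p = 0.711).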
